A study of Mus musculus with 8 samples.

Results

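The genes described here are 10 immediate-early genes, *Fos*, *Fosb*, *Jun*, *Junb*, *Jund*, *Egr1*, *Atf3*, *Ier2*, *Ier3* and *Myc*, in RNA of hepatocytes isolated from the livers of mice with and without the cannabinoid receptor CB1R in these cells. They were chosen by name and not by a measured value: every non-control probe whose accession matched 1 of the 10 genes in RefSeq was used. Each gene was matched by 1 probe, so the set holds 10 of the 21368 genes that could be named on the array.

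Immediate-early genes are transcribed soon after a stimulus reaches a cell, without new protein synthesis, by factors that are already present, chiefly SRF with its partners of the ELK family and CREB. Most of them encode transcription factors: FOS and JUN proteins pair to form AP-1, EGR1 is a zinc finger factor, ATF3 is a stress-induced relative of AP-1 proteins, and MYC drives growth. In liver they are known to be switched on after partial hepatectomy and when hepatocytes are freed from the tissue by enzyme digestion.

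The study asked how loss of hepatocyte CB1R, encoded by *Cnr1*, changes the hepatocyte transcriptome. The control group was 4 samples from male hCNR1+/+ mice, labelled hCNR1_WT and of the strain given as CNRO. The knockout group was 4 samples from male hCNR1-/- mice, labelled hCNR1_cKO and of the strain given as CNRO Alb-Cre, in which Cre driven by the albumin promoter removed a floxed *Cnr1* in hepatocytes. Both groups were littermates of 12 to 14 weeks on a standard diet, with no further treatment named. The strain label gives Alb-Cre for the knockouts alone, so presence of Cre and loss of *Cnr1* cannot be told apart. The labels number the samples, and do not say how cells were prepared or that each sample is a separate mouse, so p-values measure the spread between these samples, part of which may be technical. Every array came from isolated hepatocytes. Arrays of intact liver or of other times after isolation were not analysed here, so a change with isolation itself could not be examined.

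Each sample was read on 1 array of 1 colour, all on 1 slide. Each genotype had its own row of the slide, and effects of row and of genotype cannot be told apart. The single *Cnr1* probe stood clear of background on 0 of 8 arrays, so it gives no check of the labels. All 14 hepatocyte markers were well above background on all 8 arrays. The 75th percentile of intensity ran from 62.0 to 139 on 7 arrays and was 29.3 on hCNR1-/- replicate 4, where 28.6% of spots were well above background against 35% to 42.3% on the others. Levels below are log2 intensities with the 75th percentile of the array subtracted, so that 0 is an intensity at that percentile. A level of 1 gene is not comparable with that of another, since each probe has its own brightness.

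The proximal promoters of *Fos*, *Jun* and *Junb* are shown as examples, because they carry the short elements marked below. The windows are from RefSeq, build GRCm38.p6, which held an entry for 7 of the 10 genes. Each line gives the 150 bases before the annotated start, 5′ to 3′ on the strand of the gene, *Fos* at chr12:85473740-85473889 on the plus strand, *Jun* at chr4:95052223-95052372 on the minus strand and *Junb* at chr8:84978749-84978898 on the minus strand. Capitals mark the letters TGACG (the core of a CREB element), TGACATCA (a variant AP-1 or ATF element), CCAAT and TATAAA.
Fos: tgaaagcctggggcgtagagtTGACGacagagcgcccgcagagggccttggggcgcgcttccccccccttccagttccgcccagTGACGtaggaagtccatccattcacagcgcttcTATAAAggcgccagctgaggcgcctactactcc
Jun: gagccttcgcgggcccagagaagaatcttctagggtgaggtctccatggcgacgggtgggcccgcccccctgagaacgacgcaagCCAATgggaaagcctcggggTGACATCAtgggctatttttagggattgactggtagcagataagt
Junb: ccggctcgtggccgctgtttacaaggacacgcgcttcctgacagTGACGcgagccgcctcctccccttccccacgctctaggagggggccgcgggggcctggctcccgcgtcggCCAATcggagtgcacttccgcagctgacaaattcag

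In *Fos*, TGACG stood 129 and 66 bases before the start and TATAAA 33 bases before it. In *Jun*, TGACATCA stood 45 bases before the start. In a search of the 250 bases before the start on both strands, TGACG was found in 4 of 7 windows (*Fos*, *Fosb*, *Junb* and *Atf3*) and in 17.8% of all 32851 windows, and it was added to the search after these windows had been read. TGACATCA was found in 1 of 7 windows and in 2.93% of all windows, and CCAAT in 3 of 7 (*Jun*, *Junb* and *Ier3*) and in 33.8%. TATAAA, searched on the strand of the gene alone, was found in 1 of 7 and in 7.59%. The full CREB element TGACGTCA (1.55% of all windows), the AP-1 element TGANTCA (6.75%), the E-box CACGTG (6.02%) and the CArG box of SRF (1.47%) were found in 0 of 7 windows, and the EGR element GCGNGGGCG in 1 of 7 (*Fosb*) and in 4.70%. A match describes these letters alone and is not a measured binding site. Bases further upstream were not searched, and *Egr1*, *Ier2* and *Myc* had no window. A count of 0 therefore does not say that these genes lack the element.

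All 10 genes were detected, and none of the 10 differed between the genotypes by the test over all genes. All 10 passed the filter for testing, 8 of them well above background on all 8 arrays and *Fos* and *Fosb* on 4 hCNR1+/+ and 3 hCNR1-/- arrays. By limma with Benjamini-Hochberg adjustment over 11068 genes, 0 of 10 passed an adjusted p of 0.05, where 4.24% of all tested genes did (1.3% lower and 2.94% higher in hCNR1-/-). At an unadjusted p below 0.05, 1 of 10 passed and was higher, against 21.6% of tested genes (14.7% higher and 6.92% lower). A fold above 2 with an unadjusted p below 0.05 was reached by 0 of 10, against 8.52%, and the genotypes failed to overlap in 0 of 10, against 17.8%. The log2 fold change of hCNR1-/- over hCNR1+/+ was below 0 in 6 genes and above 0 in 4, with a median of -0.17, where the median of all tested genes was 0.08. The adjusted p ranged from 0.203 to 0.944. The 95% interval lay within a 2-fold change in either direction for 4 genes, *Junb*, *Jund*, *Ier2* and *Ier3*; for the other 6 the interval reached past 2-fold on at least 1 side.

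**Figure D1:**
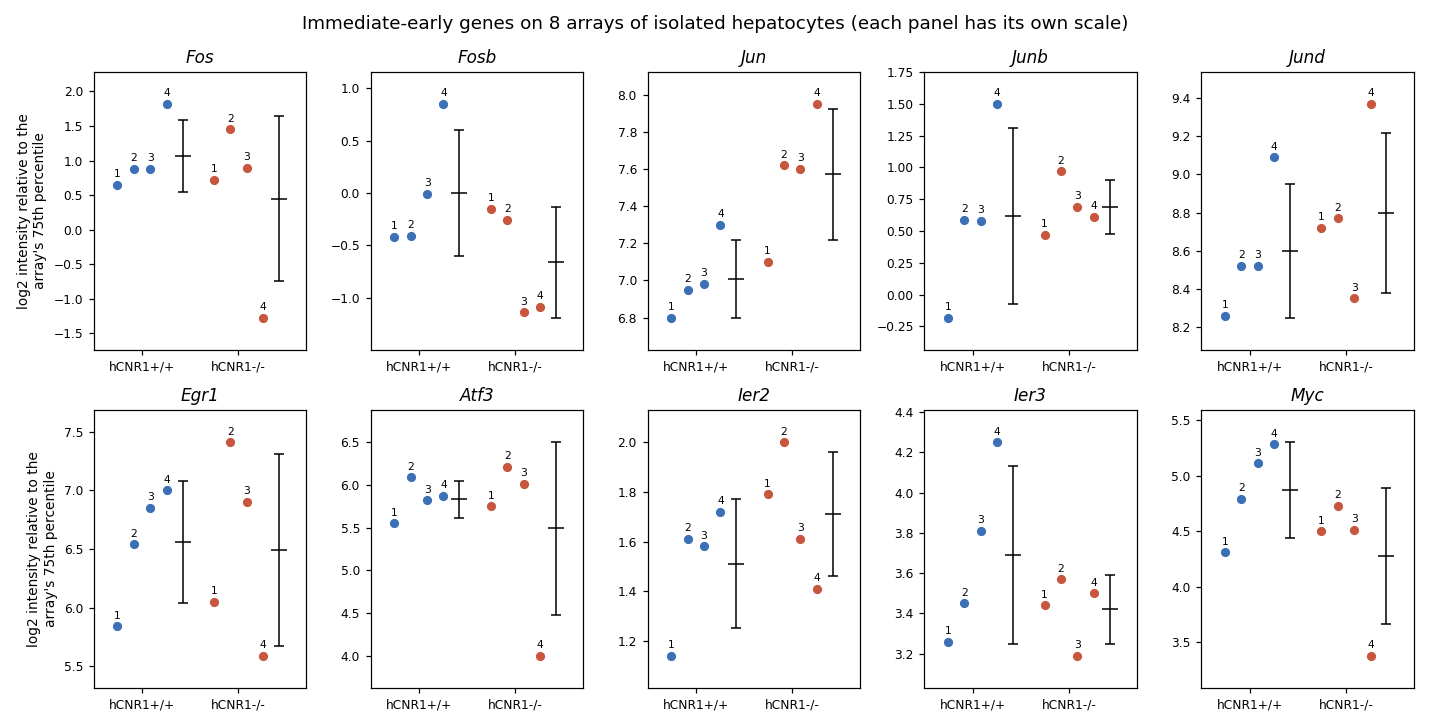
Level of each of the 10 genes (log2 intensity relative to the 75th percentile of the array, own scale per panel) on the hCNR1+/+ arrays (blue) and hCNR1-/- arrays (red), with the replicate number above each point and the mean and SD of each genotype in black. The genotypes overlap in every panel, and hCNR1-/- replicate 4 lies at -1.27 for Fos and at 4.0 for Atf3, below the other 7 arrays.

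*Jun*, which encodes the main JUN partner of AP-1, was the gene that came closest. In replicates 1 to 4, its level was 6.80, 6.95, 6.98 and 7.30 for hCNR1+/+ samples (the controls) and 7.10, 7.62, 7.60 and 7.95 for hCNR1-/- samples (the knockouts), and later values are given in the same order. The knockout replicates 2, 3 and 4 lay above every control, and knockout replicate 1 lay between the controls, so the groups overlapped. The means were 7.01 ± 0.21 (SD, n = 4) and 7.57 ± 0.35 (SD, n = 4), a log2 difference of 0.56 with an SE of 0.23 (95% interval 0.04 to 1.09), or 1.48-fold. The limma p was 0.0386 before adjustment and 0.203 after it, and the exact two-sided permutation test gave p = 0.0571, where the smallest p of 4 against 4 arrays is 0.0286. With limma's array weights, which give arrays that depart from their group less weight, the log2 difference was 0.51 and the adjusted p 0.0473. On intensities with no scaling between arrays, the log2 difference of *Jun* was 0.01, and that of the median tested gene was -0.47, which leaves *Jun* 0.48 above the median.

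*Jund*, the JUN member that many resting cells express, had levels of 8.26, 8.52, 8.52 and 9.09 in the controls and 8.72, 8.77, 8.35 and 9.37 in the knockouts. Replicate 4 was the highest array of both genotypes. The log2 difference was 0.20 with an SE of 0.28 (adjusted p = 0.70 by limma). *Junb*, a JUN protein that can restrain JUN, had levels of -0.18, 0.59, 0.58 and 1.5 in the controls and 0.47, 0.97, 0.69 and 0.61 in the knockouts. All 4 knockouts lay inside the range of the controls, whose SD of 0.69 compares with 0.21 in the knockouts. The log2 difference was 0.06 (95% interval -0.68 to 0.81).

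*Fos*, the partner of JUN proteins that gave the class its best-known member, had levels of 0.65, 0.88, 0.88 and 1.82 in the controls and 0.72, 1.45, 0.90 and -1.27 in the knockouts. Knockout replicates 1, 2 and 3 lay inside the range of the controls, and knockout replicate 4 lay 1.92 below the lowest other array, where the probe, printed in 10 spots, was not well above background. The log2 difference over all arrays was -0.61 with an SE of 0.54 (adjusted p = 0.547 by limma). Without knockout replicate 4 it was -0.04 (95% interval -0.75 to 0.68). *Fosb*, which encodes another FOS protein, had levels of -0.42, -0.41, -0.01 and 0.85 in the controls and -0.15, -0.26, -1.14 and -1.09 in the knockouts. Knockout replicates 3 and 4 lay below every control and knockout replicates 1 and 2 among them. The log2 difference was -0.66 with an SE of 0.36 (95% interval -1.47 to 0.14, adjusted p = 0.314), and -0.52 without knockout replicate 4.

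*Atf3*, which is induced by many kinds of cell stress, had levels of 5.55, 6.09, 5.82 and 5.87 in the controls and 5.75, 6.21, 6.01 and 4.0 in the knockouts. The first 7 of these values lay within 0.66 of each other, and knockout replicate 4 lay 1.55 below the lowest of them. The log2 difference was -0.34 with an SE of 0.44 over all arrays and 0.16 with an SE of 0.19 without that array, so its direction rested on 1 array. *Egr1*, an early growth response factor, had levels of 5.84, 6.54, 6.85 and 7.0 in the controls and 6.05, 7.41, 6.90 and 5.59 in the knockouts. The knockouts held both the highest and the lowest array. The log2 difference was -0.07 (95% interval -1.01 to 0.87) over all arrays and 0.23 without knockout replicate 4.

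*Myc*, which encodes a growth-promoting factor, had levels of 4.31, 4.79, 5.11 and 5.28 in the controls and 4.5, 4.73, 4.51 and 3.38 in the knockouts. The controls 2, 3 and 4 lay above every knockout, and control 1 lay below 3 of the 4 knockouts. The log2 difference was -0.59 with an SE of 0.34 (95% interval -1.35 to 0.17, adjusted p = 0.346 by limma), and -0.29 without knockout replicate 4. *Ier3*, an early-response gene known for its part in cell survival, had levels of 3.26, 3.45, 3.81 and 4.25 in the controls and 3.44, 3.57, 3.19 and 3.50 in the knockouts, with a log2 difference of -0.27 (95% interval -0.83 to 0.29). The lowest array of all was a knockout and the highest 2 were controls. *Ier2*, which encodes a nuclear early-response protein, had levels of 1.14, 1.61, 1.58 and 1.72 in the controls and 1.79, 2.0, 1.61 and 1.41 in the knockouts, with a log2 difference of 0.19 (95% interval -0.30 to 0.69).

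**Figure D2:**
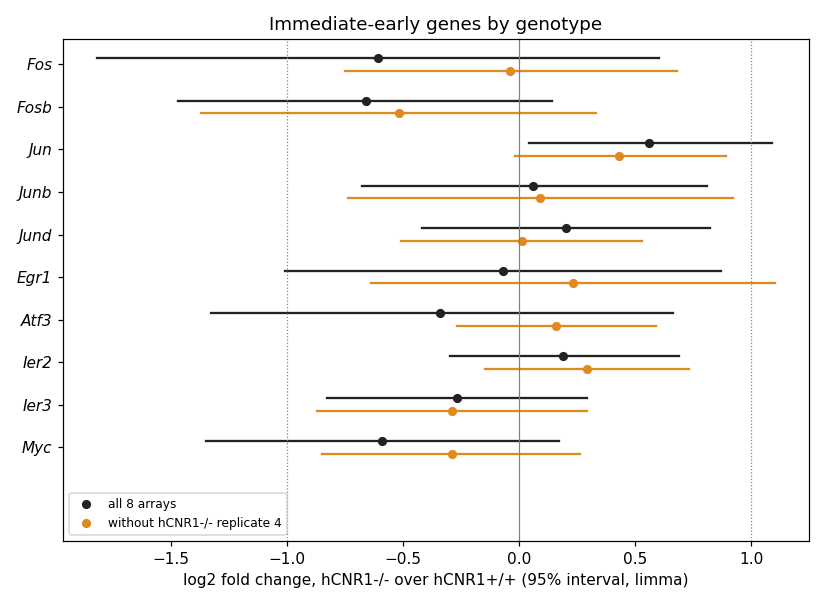
Log2 fold change of hCNR1-/- over hCNR1+/+ with its 95% interval from limma, for each gene over all 8 arrays (black) and without hCNR1-/- replicate 4 (orange); dotted lines mark a 2-fold change. The points of Fos move from -0.61 to -0.04 and of Atf3 from -0.34 to 0.16 when that array is left out, while Jun stays above 0 at 0.56 and 0.43.

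The same arrays stood high or low for most of the 10 genes. Among the controls, replicate 1 was the lowest array for 10 of 10 genes, where it was the lowest control for 24.7% of all tested genes, and replicate 4 was the highest for 9 of 10, where it was the highest control for 45.5%. Among the knockouts, replicate 2 was the highest for 7 of 10 (26.9% of all tested genes) and replicate 4 the lowest for 5 of 10 (53.3%). The knockout replicate 4 held the highest level of *Jun* and *Jund* on any array and the lowest of *Fos*, *Egr1*, *Atf3* and *Myc*. Control replicate 1 stayed the lowest control for 10 of 10 genes when arrays were scaled on bright probes and for 9 of 10 after quantile normalization, but for 4 of 10 with median scaling and 3 of 10 with no scaling. With no scaling, control replicate 4 was the lowest control for 6 of 10 and the highest for 1 of 10. The order among the controls therefore changed with the scaling.

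The intensities before scaling show how far knockout replicate 4 departed. The intensity of *Fos* was 208, 257, 203 and 219 in the controls and 204, 216, 175 and 12.1 in the knockouts. That of *Atf3* was 6220, 9520, 6230 and 3620 in the controls and 6670, 5880, 6070 and 469 in the knockouts. That of *Jun* was 14800, 17200, 13900 and 9770 in the controls and 17000, 15600, 18300 and 7240 in the knockouts. Knockout replicate 4 had the lowest unscaled intensity of 8 arrays for 10 of 10 genes, and for 84.9% of all tested genes. Across the 8 arrays the 45 pairs of the 10 genes had a median Pearson r of 0.44 (range -0.63 to 0.92, 36 pairs above 0) for scaled levels, 0.68 without knockout replicate 4 (43 pairs above 0), and 0.91 (0.57 to 0.98) for unscaled ones; the arrays share the slide and the scaling, and no test was made of these values. *Fos* went most closely with *Atf3* and *Myc* (r = 0.92 for each), and the lowest r was between *Jund* and *Atf3* (-0.63).

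**Figure D3:**
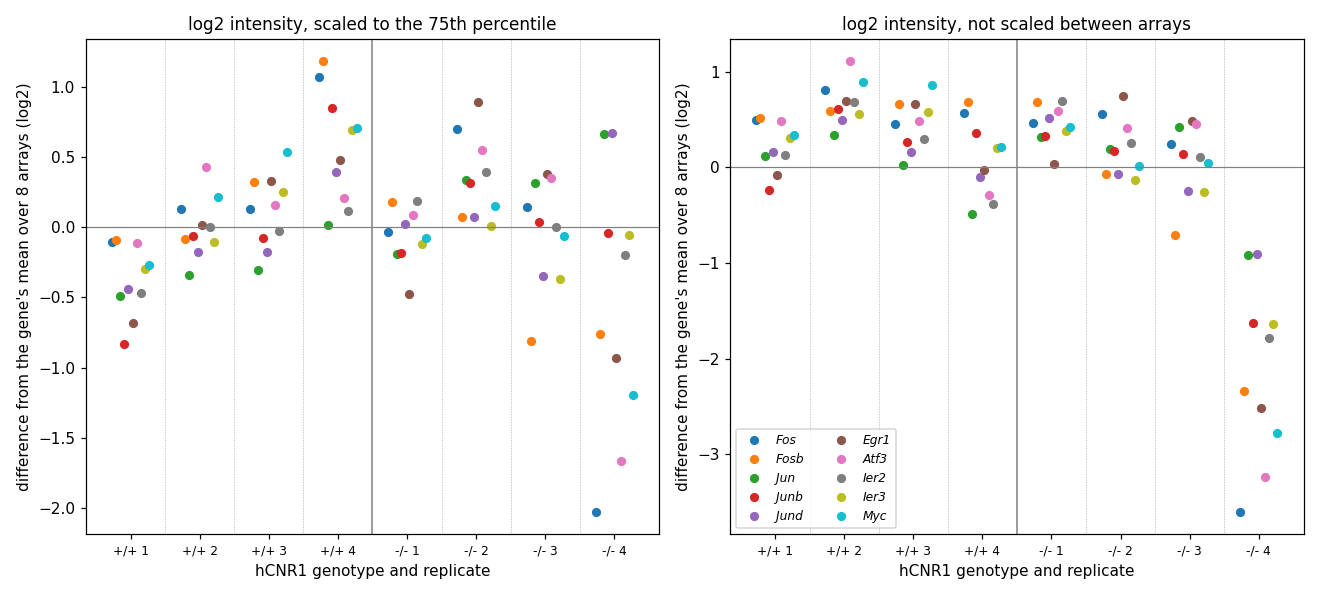
Difference of each gene from its own mean over the 8 arrays (log2), for intensities scaled to the 75th percentile (left) and not scaled (right), by genotype and replicate; each colour is 1 gene, and the horizontal offset within an array has no meaning. On the left hCNR1+/+ replicate 1 is below the other controls for 10 of 10 genes, and on the right hCNR1-/- replicate 4 is the lowest array for 10 of 10.

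The 3 genes whose scaled levels went most closely with each member over the 8 arrays were as follows. For *Fos* they were *Fdxacb1* (r = 0.994), *Nt5dc3* (0.991) and *Lamp1* (0.990), and for *Atf3* *Ttc39c* (0.992), *Atp5c1* and *Gmeb2* (0.987 each). Without knockout replicate 4 the r of *Gmeb2* with *Atf3* was 0.834 and that of *Fdxacb1* with *Fos* 0.971. For *Jun* they were *Tram2* (0.988), *Sil1* (0.980) and *Krtap4-8* (0.978), for *Junb* *1700001K19Rik* (0.967), *Car5a* and *Zfp467*, and for *Jund* *Endog* (0.986), *Lrig2* and *Lgals1*. For *Fosb* they were *Pde4b* (0.981), *Brat1* and *Fads1* (0.971 each), and for *Egr1* *Dnaic1* (0.984), *Xbp1* (0.976) and *Msra* (0.960). For *Ier2* they were *Aimp2* (0.932), *Erfe* and *Abhd2* (0.920 each), for *Ier3* *Upp1* (0.976), *Mapk7* (0.970) and *Itpkc*, and for *Myc* *Syce2* (0.978), *Tbc1d1* and *AA986860*. These are the highest of 11068 values of r on the same 8 arrays, given as a description.

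Genes that act before, beside and after the 10 members were read from 7 lists with 141 genes, of which 120 were tested. By limma, 2 were lower and 2 higher in hCNR1-/- at an adjusted p of 0.05, or 3.33%, where 4.24% of all tested genes passed, and their median log2 fold change was -0.01. Without knockout replicate 4 the same counts were 3 lower and 14 higher, where over all genes 323 were lower and 1121 higher.

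**Figure D4:**
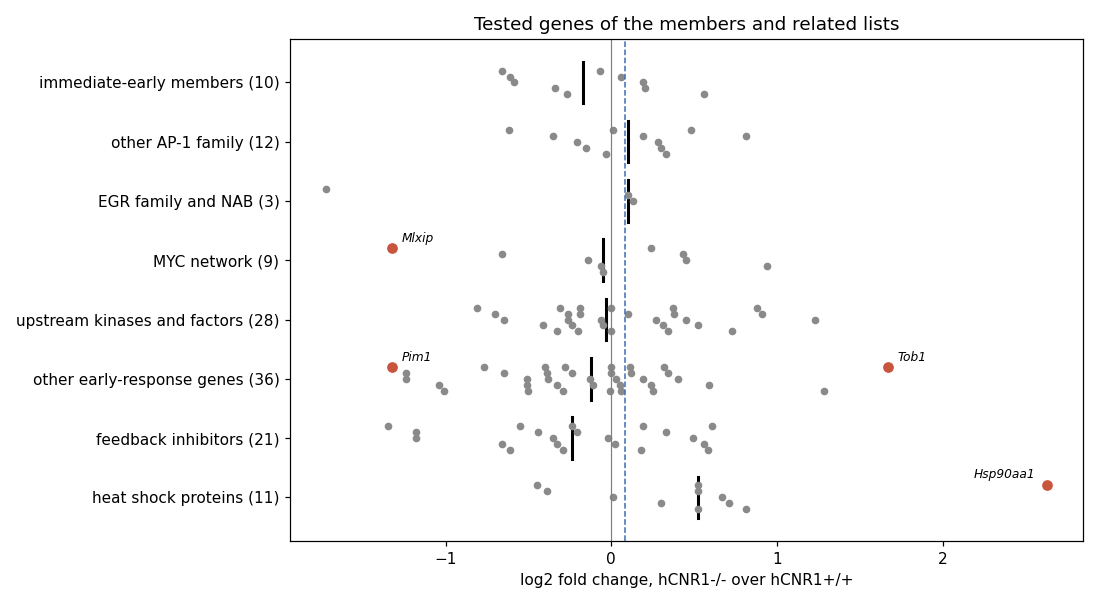
Log2 fold change of hCNR1-/- over hCNR1+/+ for each tested gene (points) of the members and of the 7 related lists, with the number tested in brackets, the median of each list as a black bar and the median of all tested genes (0.08) as a dashed line; red points with names passed an adjusted p of 0.05. The 4 named points are Mlxip and Pim1 below 0 and Tob1 and Hsp90aa1 above 0, and heat shock proteins have the highest median of the lists, 0.52.

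Upstream of the members, 0 of 28 tested kinases and transcription factors passed the adjusted test (median log2 fold change -0.03). *Srf*, which encodes the factor that binds the CArG box, had levels of 4.79, 5.73, 5.32 and 3.24 in the controls and 5.88, 6.22, 5.76 and 6.13 in the knockouts. The groups did not overlap, and the log2 difference was 1.23 with an SE of 0.47, which did not pass (adjusted p = 0.171). *Srf* has a dimmer probe that was also well above background on all 8 arrays and gave 0.18 (adjusted p = 0.755 in the fit by probe), and the mean of both probes gave 0.71 (adjusted p = 0.185). Without control replicate 4, the lowest array, the brighter probe gave 0.72. *Elk4*, a partner of SRF, differed by 0.91 with an SE of 0.27 (adjusted p = 0.0907), and its other probes well above background on all arrays gave 0.52 and 0.11. *Braf*, a kinase of the ERK pathway, differed by 0.88 (adjusted p = 0.401), and by 0.40 without control replicate 4. Without knockout replicate 4, *Creb1*, *Elk4*, *Map2k2* and *Mapk9* were called higher and *Elk1* lower, or 4 and 1 of 28 tested. In that fit 1121 of all 11068 tested genes were called higher and 323 lower.

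Among other AP-1 family genes 0 of 12 tested passed the adjusted test (1 at an unadjusted p below 0.05, *Atf5*), with a median log2 fold change of 0.10. *Atf5*, a stress-response factor of the ATF family, differed by 0.81 (adjusted p = 0.0671) and *Atf6*, a sensor of stress in the endoplasmic reticulum, by -0.62 (adjusted p = 0.463) and by -0.17 without knockout replicate 4. *Jdp2*, which encodes a repressor that pairs with JUN, differed by 0.48 (adjusted p = 0.444), with 0.77 without control replicate 2 and 0.32 without knockout replicate 2. In the EGR family 0 of 3 tested genes passed. *Egr2* had a level of 3.69 in control replicate 3 and of -2.81 to -0.58 on the other 7 arrays (log2 difference -1.72, SE 1.13, adjusted p = 0.412; -0.43 without that array), and its co-repressors *Nab1* and *Nab2* differed by 0.13 and 0.10.

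In the MYC network 1 of 9 tested genes was lower and 0 higher. *Mlxip*, a glucose-responsive relative of the MYC partners, had levels of -1.33, -0.40, -0.76 and -0.51 in the controls and -1.78, -2.10, -1.87 and -2.50 in the knockouts, where 2 of 4 arrays were well above background. Every knockout lay below every control, with a log2 difference of -1.32 and an SE of 0.27 (adjusted p = 0.0328). Part of that difference is read against knockout values that were not well above background, and with normexp background correction it was -0.37 (adjusted p = 0.556). *Mxd4*, an antagonist of MYC, differed by 0.94 (adjusted p = 0.058) with its brighter probe and by 0.35 (adjusted p = 0.419 in the fit by probe) with the other. *Mga*, a factor that pairs with MAX, differed by -0.66 (adjusted p = 0.516), and by -0.37, -0.40 and -1.24 without control replicate 1, 2 and 4. It was well above background on 3 control arrays and 1 knockout array, so most knockout values behind this difference were not.

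Among 36 other tested early-response genes 1 was lower and 1 higher. *Tob1*, an anti-proliferative gene, had levels of 0.49, 0.33, 0.32 and 0.31 in the controls and 2.21, 1.49, 1.97 and 2.45 in the knockouts. It was higher in 4 of 4 knockouts, with a log2 difference of 1.67 and an SE of 0.24, or 3.18-fold (adjusted p = 0.0123 by limma). *Pim1*, a kinase induced by cytokines, had levels of 0.67, 0.98, 0.75 and 0.97 in the controls and -0.54, -0.55, -0.88 and 0.04 in the knockouts. It was lower in 4 of 4 knockouts, with a log2 difference of -1.32 and an SE of 0.24 (adjusted p = 0.0229). *Arc*, an activity-regulated gene, differed by 1.28 (adjusted p = 0.216), and *Trib1*, *Gadd45g* and *Klf2*, named after their values were seen, by -1.24, -1.04 and -1.01 (adjusted p = 0.0781, 0.144 and 0.121).

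Of the feedback inhibitors that end early responses, 0 of 21 tested passed (median log2 fold change -0.24). Without knockout replicate 4, 1 of 21 was called higher, *Socs2*, and 0 lower. In that fit 1121 of all 11068 tested genes were called higher and 323 lower. Over all arrays *Socs2* differed by 0.61 and did not pass (adjusted p = 0.17 by limma). *Socs3*, the inhibitor of cytokine receptor signalling, had levels of 3.11, 3.17, 5.56 and 4.5 in the controls and 2.35, 2.96, 3.0 and 2.66 in the knockouts. The groups did not overlap, but control replicates 1 and 2 lay within 0.17 of the highest knockout, and the log2 difference of -1.35 with an SE of 0.51 did not pass (adjusted p = 0.165). Without control replicate 3 it was -0.85. *Tnfaip3*, a brake on NF-κB, and *Zfp36l2*, which promotes decay of mRNA, each differed by -1.18 (adjusted p = 0.45 and 0.226). *Tnfaip3* was at -0.3 without knockout replicate 4 and at -1.81 without knockout replicate 2, and *Zfp36l2* at -0.69 without control replicate 4. Of the heat shock proteins 0 of 11 tested were lower and 1 higher, 9 of 11 log2 fold changes were above 0 (56.6% of all tested genes were), and the median was 0.52. Without knockout replicate 4, 4 of 11 were called higher, *Dnajb1*, *Hsp90aa1*, *Hsp90ab1* and *Hspd1*, where 1121 of all 11068 tested genes were. *Hsp90aa1*, the stress-inducible form of the chaperone HSP90, had levels of 2.98, 2.75, 1.51 and 1.26 in the controls and 4.70, 4.23, 5.05 and 5.05 in the knockouts, a log2 difference of 2.63 with an SE of 0.41, or 6.20-fold (adjusted p = 0.0164). *Hspb1*, a small heat shock protein, differed by 0.81 (adjusted p = 0.0964) and *Hspa1a*, the inducible HSP70, by 0.71 (adjusted p = 0.452), with 0.22 without knockout replicate 1 and 1.11 without knockout replicate 4.

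**Figure D5:**
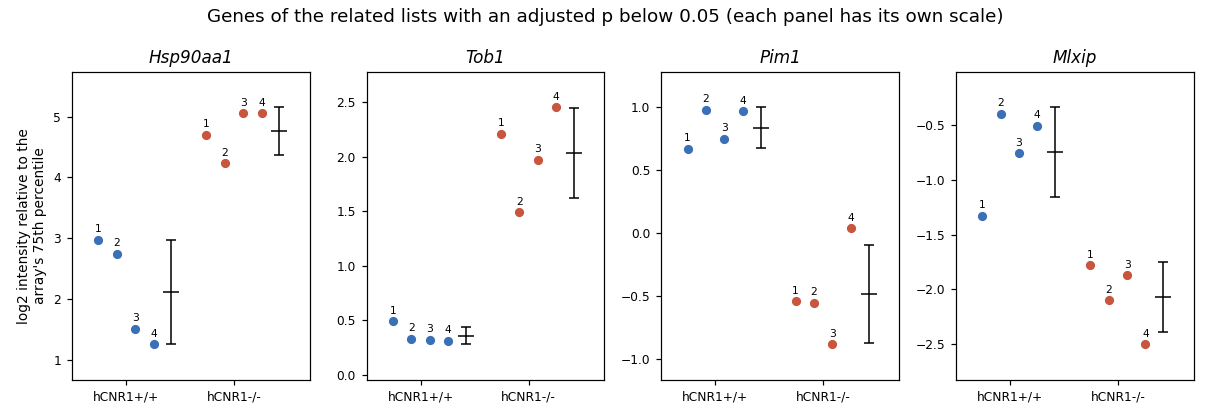
Level (log2 intensity relative to the 75th percentile of the array, own scale per panel) of the 4 related genes that passed an adjusted p of 0.05, on the hCNR1+/+ arrays (blue) and hCNR1-/- arrays (red), with the replicate number above each point and the mean and SD in black. The genotypes do not overlap in any of the 4 panels, with no hCNR1-/- point above 0.04 for Pim1 and no hCNR1+/+ point above 0.49 for Tob1.

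With 1 array left out at a time, calls of these 4 genes were lost in some fits. *Tob1* kept its call in 7 of 8 fits that left out 1 array and lost it without control replicate 3 (adjusted p = 0.0567). *Hsp90aa1* lost it without control replicate 3 (adjusted p = 0.0606), knockout replicate 1 (0.0511) or knockout replicate 3 (0.062). *Pim1* lost it without control replicate 2 or 3 or knockout replicate 1, 2 or 3, with an adjusted p of up to 0.0807. *Mlxip* lost it without any of these or without control replicate 4 (adjusted p up to 0.105). Over the 8 fits the log2 difference ran from 1.53 to 1.85 for *Tob1*, from 2.35 to 2.92 for *Hsp90aa1*, from -1.5 to -1.19 for *Pim1* and from -1.51 to -1.17 for *Mlxip*. Over all alternatives run, *Tob1* was called in 17 of 24, *Hsp90aa1* in 14 of 24, *Pim1* in 13 of 24 and *Mlxip* in 8 of 23. With no scaling none of the 4 was called, and *Tob1* had an adjusted p of 0.817 by limma. With median scaling its adjusted p was 0.113. Without knockout replicate 4 the genes of the AP-1 and MYC lists called higher were *Atf5*, *Max* and *Mxd4*. They were 1 of 12 and 2 of 9 tested, where 1121 of all 11068 tested genes were called higher.

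Markers of Kupffer cells, the liver's resident macrophages, are given beside these genes because some of them differed between the genotypes. Of 13 markers, 10 were tested, and 2 of these passed the adjusted test, *Ctss* (log2 difference -1.89, adjusted p = 0.0124 by limma) and *Marco* (-2.41, adjusted p = 0.0336), where 1.3% of all tested genes were called lower. The other 8 did not pass. Without knockout replicate 4, 4 of 10 were called lower, *Cd68*, *Ctss*, *Marco* and *Vsig4*, and 0 higher. In that fit 323 of all 11068 tested genes were called lower. Over all 8 arrays a log2 fold change below 0 was found in 10 of 10 markers (median -0.98) and in 43.4% of all tested genes. Their summed scaled intensity was 86.4 to 170 in the controls and 51.7 to 71.0 in the knockouts, 7 of 13 were well above background on all 8 arrays and 1 on none. The defining marker *Clec4f* had levels of 0.15 to 1.43 in the controls and -1.18 to 0.54 in the knockouts, which overlapped (adjusted p = 0.0896). *Vsig4* had -0.59 to -0.37 and -3.38 to -1.0, which did not overlap (adjusted p = 0.0518), where 17.8% of all tested genes did not. *Vsig4* was well above background on 4 control and 2 knockout arrays, and *Clec4f* on 4 and 3. Part of each difference is therefore read against knockout values that were not well above background. In RNA from a cell preparation, fewer cells of a type and less RNA per cell cannot be told apart, and the part of these cells in the values of the genes above was not tested.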

How the data were processed

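Hepatocyte RNA of 4 hCNR1+/+ and 4 hCNR1-/- samples, 200 ng each, was labelled with Cy3 and read on Agilent mouse arrays of 1 colour. The authors deposited spot intensities from Agilent Feature Extraction version 12.0.3.1, background-corrected within each array and not scaled between arrays, and a score per spot that lay within 0.005 of the z-score of log intensity. The paper refers to an earlier description for its array analysis and names a normalized z-score for a heat map; the test behind its gene counts is not given in the sources used here. A legend of the paper gives n = 3 per genotype, whereas 4 per genotype are labelled, and all 8 were used.

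Groups came from the genotype labels. Intensities were taken to log2, the 75th percentile of 59305 non-control spots was subtracted from each array, spots flagged as outliers were dropped, and spots of a probe were averaged. Accessions without versions were matched to RefSeq names (GRCm38.p6): 28331 of 55681 probes, or 21368 genes. The array design names an older build, so gene coordinates are not given. A gene took its brightest probe, and a probe counted as well above background where 50% or more of its spots had that flag from Feature Extraction; genes that met this on 4 or more of the 8 arrays were tested. Groups were compared with limma (version 3.58.1, lmFit and eBayes, 2-sided, under R 4.3.3) and p-values were adjusted by Benjamini-Hochberg over 11068 genes. Exact permutation tests covered all 70 assignments of 4 against 4 arrays. The fit was tested on simulated data.

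The members, the related lists and the marker lists were chosen with earlier results of these data known; 1 gene of the related lists is not reported here and is left out of the list counts. Named by rule are all 10 members, the genes of each related list with an adjusted p below 0.05 and the 3 with the largest changes, and the 3 genes most like each member. The first 2 markers of each list of other cell types are named by rule too. Further genes are named by their outcome: those of the related lists and Kupffer markers called without knockout replicate 4, *Trib1*, *Gadd45g*, *Klf2*, *Ctss* and *Marco*. Replicate numbers were not used as pairs in the main fit. Correlations of same-numbered arrays, after the group mean of each gene was taken off, were 0.21, -0.16, -0.05 and 0.02. These values cannot exclude a pairing. The number of arrays limits the precision. Alternatives were other scalings, the deposited scores, normexp, other filters, probe rules and variance models, array weights, a replicate block and each array left out.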

Additional observations from a re-analysis of the deposited data

Results flagged for a closer look

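Of 62 groups of 4 arrays (31 genes in 2 genotypes), 3 held an array whose gap to the nearest of the others, as a share of the group's range, was above Dixon's critical value for 4 samples; chance gives about 1 such group in 20. *Myc* in hCNR1-/- replicate 4 had a level of 3.38 against 4.5 to 4.73 in the other knockouts, a share of 0.8292 that is barely above the limit, and the log2 difference moved from -0.59 to -0.29 without that array. *Arc* in the same array was at -2.22 against -0.24 to -0.03, a share of 0.9016, where the lowest level well above background on that array was -0.846. Without that array the log2 difference was 1.80 and passed (adjusted p = 0.0278 by limma). *Arc* was well above background on 3 of 4 arrays of each genotype, and over all arrays normexp gave 0.52 (adjusted p = 0.446 by limma). *Tob1* in hCNR1+/+ replicate 1 was at 0.49 against 0.31 to 0.33, a share of 0.8582 in a group that spanned 0.18, and without it the log2 difference was 1.71.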

How the results depend on the processing

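For the 10 members, no alternative but 1 gave a call: with array weights *Jun* passed (log2 difference 0.51, adjusted p = 0.0473 by limma), the 1 member called higher. *Jun*, *Fosb*, *Ier3* and *Myc* kept their direction under all alternatives run, with ranges of 0.01 to 0.72, -1.22 to -0.24, -0.82 to -0.08 and -1.15 to -0.16. The sign of the other 6 turned under some alternatives. Quantile normalization gave *Jund* -0.14. No scaling gave *Junb* -0.49, *Jund* -0.35, *Ier2* -0.36, *Nab1* -0.43, *Nab2* -0.46 and *Jdp2* -0.08, with a median over all genes of -0.47. Scaling on bright probes gave *Junb* -0.10, *Nab1* -0.03 and *Nab2* -0.06, the deposited scores -0.10, -0.02 and 0.00, and normexp gave *Nab1* -0.03 and *Nab2* 0.00. Array weights gave *Fos* 0.10, *Egr1* 0.21, *Atf3* 0.13 and *Nab1* -0.03. Leaving out 1 array at a time, *Fos* ran from -0.94 to -0.04, *Junb* from -0.21 to 0.36, *Egr1* from -0.38 to 0.23, *Atf3* from -0.58 to 0.16 and *Nab1* from -0.20 to 0.41; *Junb* turned without control replicate 1 or knockout replicate 2, *Egr1* without control replicate 3 or 4 or knockout replicate 1 or 4, *Atf3* without knockout replicate 4 and *Nab1* without control replicate 4. Of 2 alternatives chosen after seeing the data, leaving out replicate 4 of both genotypes gave *Fos* 0.22, *Egr1* 0.38, *Atf3* 0.17, *Nab1* -0.18 and *Tnfaip3* 0.07, and no scaling without knockout replicate 4 gave *Junb* -0.03, *Jund* -0.11, *Egr1* 0.11, *Atf3* 0.04 and *Nab2* -0.11. The causes were not tested.

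Counts of calls, lower then higher, moved more. Over all genes (144 and 325) they were 86 and 131 with quantile normalization, 25 and 25 with median scaling, 29 and 1 with no scaling, 210 and 101 on bright probes, 51 and 30 with the deposited scores, 13 and 28 with normexp, 14 and 8 with no filter, 54 and 335 with all 8 arrays above background, 692 and 889 by probe, 70 and 319 with an ordinary linear model, 646 and 2177 with array weights, 482 and 1703 without replicate 4 of both genotypes, and 73 and 4 with no scaling and no knockout replicate 4. In the related lists (2 and 2) they were 3 and 2 on bright probes and, for the others in that order, 1 and 2, 0 and 0, 0 and 0, 1 and 1, 0 and 0, 0 and 0, 1 and 4, 5 and 7, 1 and 3, 5 and 23, 5 and 18, and 0 and 0, and further 4 and 3 with the mean of probes and 2 and 5 with trend and robust eBayes. The fit by probe counted probes and not genes, also in the lists, with 19985 probes tested. With no filter 21360 genes were tested, and with all 8 arrays above background 8339, where the main fit tested 11068. The counts of these settings are therefore of unlike totals. Without 1 array the counts ran from 25 to 323 and from 13 to 1121 over all genes and from 0 to 3 and from 0 to 14 in the lists. With the replicate number as a block, 0 genes passed in either direction, in the lists and over all genes, and 1 member, *Jun*, had an unadjusted p below 0.05. Of the controls, replicate 1 alone correlated best with the knockout of its own number, which does not settle whether the samples were paired.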

Other observations

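The marker lists of other liver cells gave these values. Of 11 endothelial markers 9 were tested and 0 passed an adjusted p of 0.05 by limma (1 at an unadjusted p below 0.05), and the summed scaled intensity was 46.7 to 97.3 in hCNR1+/+ and 58.0 to 300 in hCNR1-/-. Of the 9 tested, 6 had a log2 fold change below 0 and 3 above 0, with a median of -0.18. *Pecam1* was at -1.84 to -1.05 in hCNR1+/+ and -2.36 to -1.79 in hCNR1-/- (log2 difference -0.69, adjusted p = 0.129 by limma). It was well above background on 4 hCNR1+/+ and 2 hCNR1-/- arrays. *Kdr* differed by 0.75 (adjusted p = 0.464 by limma), and was at 8.18 in hCNR1-/- replicate 4 and at 5.21 to 6.31 on the other arrays. Of 10 stellate cell markers 1 was tested, of 11 lymphocyte markers 3, of 9 neutrophil markers on the array 1 and of 8 cholangiocyte markers 3, and 0 of these passed (1 lymphocyte and 1 neutrophil marker at an unadjusted p below 0.05). The summed scaled intensity of the whole list did not overlap between the genotypes for lymphocytes (84.3 to 105 in hCNR1+/+, 110 to 260 in hCNR1-/-) and neutrophils (133 to 189 and 76.5 to 116), and overlapped for stellate cells (1.23 to 1.78 and 0.817 to 2.28) and cholangiocytes (3.07 to 6.07 and 4.76 to 6.51). Of the lymphocyte and of the neutrophil markers 7 each were well above background on 0 of 8 arrays, so these sums rest on few probes. Among single tested genes, 17.8% did not overlap between the genotypes. The 1 tested neutrophil marker differed by -0.80 and did not pass. *S100a8* was well above background on 1 hCNR1+/+ array and on 0 hCNR1-/- arrays, and *Ly6g* was not on the array. The lymphocyte marker *Cd3e* was at 1.84 to 2.29 in hCNR1+/+ and 2.30 to 3.86 in hCNR1-/- (log2 difference 0.90, adjusted p = 0.153), and *Cd3d* was well above background on 0 of 8 arrays. The part of these cells in the values of the 10 genes was not tested. The stellate markers *Des* and *Lrat* were well above background on 0 of 8 arrays. Of the cholangiocyte markers, *Krt7* was well above background on 0 of 8 arrays and *Krt19* on 1 hCNR1+/+ array alone.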
